A study of Mus musculus with 48 samples.

Results

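Csf2, Il3 and Lif encode cytokines that activated T cells release to act on other cells, and their transcription start activity was followed in mouse T cells over a range of receptor stimulation, with and without engagement of the inhibitory receptor PD-1. The 3 genes were found by their symbol in the deposited tables of tag clusters, and the clusters of a symbol were summed. In the table of primary CD4+ T cells all 3 were present among 10219 gene symbols. In the table of the DO11.10 T cell hybridoma, Csf2 and Il3 were present among 10098 symbols, and no cluster carried the symbol Lif, so Lif was not analysed in the hybridoma.

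The hybridoma, a line of BALB/c x AKR/J origin whose receptor recognises the ovalbumin peptide pOVA, received pOVA at 0, 1, 10, 100, 1000 and 10000 nM. Primary CD4+ T cells of BALB/cCrSlc mice received the anti-CD3 antibody 2C11 at 0, 10, 100, 1000 and 10000 ng/ml. At every dose, dose 0 included, there was a group with PD-1 engaged and a group without, with 2 libraries each and 3 each at 10000, which makes 48 libraries in 22 groups. How long cells were stimulated, by what means PD-1 was engaged and whether libraries came from separate cultures or animals are not given in the sources used here, so p-values measure only the spread between these libraries, which may be technical. The hybridoma is a single clonal line. Groups of 2 or 3 libraries can separate without any change. Where groups are said not to overlap, the share of all genes that do so was not counted. Levels are in RPM (reads scaled to a common library size), and each read, called a tag here, marks the capped 5′ end of an RNA, so a level does not depend on transcript length.

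Csf2 encodes granulocyte-macrophage colony-stimulating factor, which drives the production and activation of granulocytes, macrophages and dendritic cells. Il3 encodes interleukin 3, which acts on blood progenitors, mast cells and basophils, and Lif encodes leukaemia inhibitory factor, a cytokine of the interleukin 6 family. The receptors for the products of Csf2 and Il3 share the beta chain encoded by Csf2rb, and the product of Lif signals through Lifr and gp130, which Il6st encodes. Antigen receptor signals that reach NFAT, AP-1 and NF-kB factors are known to switch on Csf2 and Il3 in T cells, and PD-1 is known to dampen those signals.

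All 3 genes lie on chromosome 11. In the deposited coordinates (mm9, with no statement on whether they count from 0 or 1), Il3 had 1 cluster on the minus strand at 54080781 to 54080782 in both tables, and Lif had 1 on the plus strand at 4166534 to 4166537. Csf2 had a minus-strand cluster at 54063145 in both tables, 17636 bases from that of Il3. In the hybridoma table Csf2 had a further minus-strand cluster at 54062863 to 54062881, which lies 264 to 282 bases downstream of the first. No cluster other than these lay within 100 kb of Csf2 or Il3 in either table.

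The bases just before the RefSeq starts of Il3 and Csf2 are shown because these genes lie side by side and were measured here through their start sites. For Csf2 the RefSeq start is not the measured one, judged by the distances given below. The sequences are from RefSeq (GRCm38.p6), which is not the build of the deposited coordinates, and both are read on the minus strand, 5′ to 3′, over the 250 bases before the RefSeq start. The Il3 stretch is chr11:54267280-54267529 and the Csf2 stretch is chr11:54249900-54250149. Capitals mark GGAAA (read on the other strand as TTTCC), the core of NFAT and Rel sites, and TGTGGT, the core of RUNX sites.
Il3: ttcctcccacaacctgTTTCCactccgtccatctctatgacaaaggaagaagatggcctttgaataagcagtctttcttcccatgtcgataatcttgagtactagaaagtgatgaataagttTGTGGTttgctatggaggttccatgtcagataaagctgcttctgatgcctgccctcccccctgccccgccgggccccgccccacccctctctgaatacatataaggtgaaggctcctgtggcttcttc
Csf2: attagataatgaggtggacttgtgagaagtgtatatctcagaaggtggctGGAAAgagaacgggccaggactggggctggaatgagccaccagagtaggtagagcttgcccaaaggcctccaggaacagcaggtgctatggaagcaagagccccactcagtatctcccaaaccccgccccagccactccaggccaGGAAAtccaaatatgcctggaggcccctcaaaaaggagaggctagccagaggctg

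Motifs were searched on both strands over the full RefSeq windows, which add 50 bases after the start. The Il3 window held 1 match of GGAAA, 1 of TGTGGT and a pair of overlapping matches of the loose NF-kB form searched, which is GGG and CC with 5 bases of any kind between them. The Csf2 window held 3 matches of GGAAA, the last of which overlaps its single match of that form and lies past the bases shown. Neither window held TGANTCA (AP-1), TGACGTCA (CRE) or TATAAA. Of 32851 mouse promoter windows of the same length, 61.3% held GGAAA at least once, 9.42% at least 3 times, 50.8% held the NF-kB form, 16.8% held TGTGGT, 13.6% held TATAAA, 7.81% held TGANTCA and 1.79% held TGACGTCA. The RefSeq start of Il3 lies 2 bases from the GENCODE start, whereas that of Csf2 lies 232 bases upstream of the GENCODE start, and the Il3 and Csf2 starts are 17380 bases apart in RefSeq and 17610 in GENCODE. The deposited clusters are 17636 bases apart, nearer to the GENCODE distance. The Csf2 stretch shown and the Csf2 window searched thus lie upstream of the bases that adjoin the measured start. Motifs present or absent in that window do not describe those bases, which were not searched. The RefSeq window of Lif starts 11 bases from 1 of its 3 annotated starts and 9228 to 9527 bases from the others. It is not shown, since which of them the deposited cluster matches was not determined across builds.

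The recovered totals per library, in M tags, lay between 7.79 and 19.7 for the hybridoma, with a median of 14.7, and between 4.42 and 22.8 for CD4+ T cells, with a median of 10.2. T cell markers summed to 924 to 1383 RPM over the hybridoma libraries and to 3041 to 4242 RPM over those of CD4+ T cells. All 8 markers were present in CD4+ T cells, whereas Cd4 itself was not among the hybridoma genes. Of 5 mast cell and basophil markers, which could mark another source of Il3, none was in the CD4 table. Cpa3 alone was in the hybridoma table, at 109 to 194 RPM over its libraries. Of 6 myeloid markers, Cst3 alone was in either table, and of 5 markers of cytotoxic and NK cells Gzma was in both tables and Cd8b1 in that of CD4+ T cells. These are RNA pools of many cells, so fewer producing cells and less RNA per cell cannot be told apart.

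Stimulation of CD4+ T cells through CD3 raised all 3 cytokine genes from near-silent levels, and Lif reached the highest level, followed by Csf2 and then Il3. Without PD-1 engagement, Lif had 88.3, 109.8 and 92.0 RPM at 10000 ng/ml, against 0.786 and 1.15 RPM at dose 0. Its mean of 96.7 ± 11.5 RPM (SD, n = 3) was 100.0-fold that of dose 0, 0.967 ± 0.256 RPM (n = 2). Csf2 had 54.3, 65.4 and 50.8 RPM at 10000 ng/ml, against 0.643 and 1.03 RPM at dose 0. Its mean of 56.8 ± 7.62 RPM was 67.8-fold the dose 0 mean of 0.838 ± 0.276 RPM. Il3 had 8.36, 8.68 and 8.41 RPM at 10000 ng/ml, whereas neither unengaged dose 0 library held an Il3 tag. Since 0 tags allow up to 3 in the pair of libraries together, or 0.132 RPM, Il3 was at least 64.2-fold higher. This limit covers the counting error of dose 0 only. For each of the 3 genes, every library at 10000 ng/ml lay above every library at dose 0.

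On the log2(RPM + 1) scale, which understates changes of low genes, the rise at 10000 ng/ml was 5.63 ± 0.23 for Lif (SE), 4.98 ± 0.22 for Csf2 and 3.25 ± 0.19 for Il3. The limma adjusted p, taken over all 10217 genes tested, was 1.7e-13 for Lif, 3.8e-13 for Csf2 and 2.4e-11 for Il3, and a call below means that it fell under 0.05. In the same comparison 67.7% of all genes were called, and the median of all genes was -0.15 (-0.03 after quantile normalization).

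**Figure D1:**
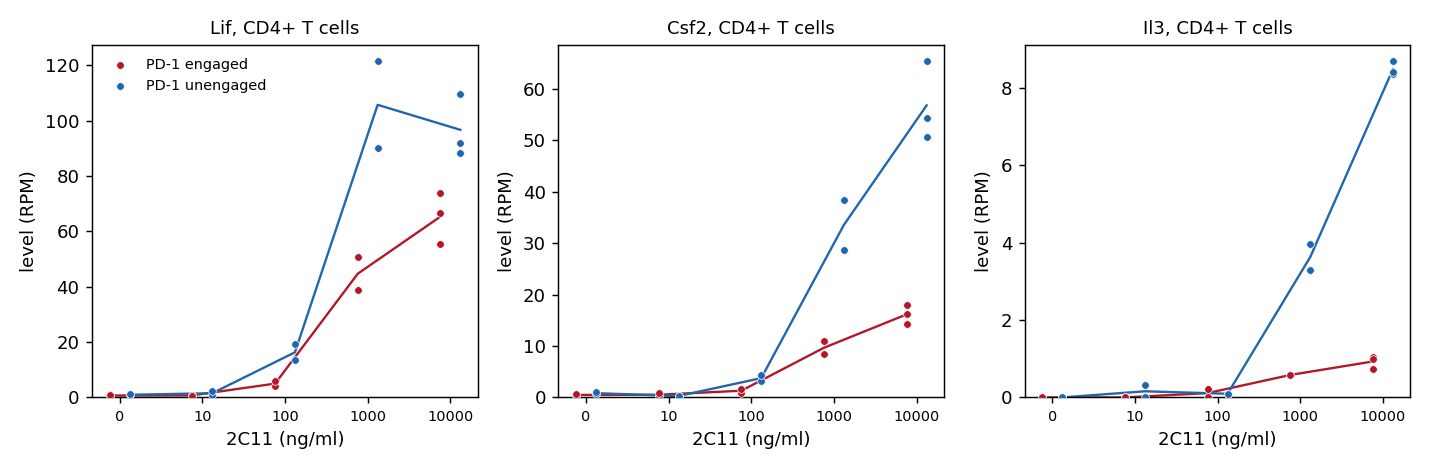
Level in RPM (vertical axis, from 0, scaled per panel) of Lif, Csf2 and Il3 in each CD4+ T cell library against the dose of 2C11 in ng/ml (evenly spaced steps), with PD-1 engaged in red, left, and unengaged in blue, right; lines join group means. Lif is flat between 1000 and 10000 ng/ml without engagement, whereas Csf2 and Il3 go on rising, and the engaged libraries of Csf2 and Il3 stay well below the unengaged ones at both doses.

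The 3 genes differed in the dose at which they came on. At 10 ng/ml without engagement, Lif had 0.812 and 2.23 RPM, Csf2 0.232 and 0.318 RPM and Il3 0 and 0.318 RPM, which are 28, 5 and 3 tags per group. At 100 ng/ml Lif had 13.4 and 19.3 RPM, Csf2 3.14 and 4.39 RPM and Il3 0.101 and 0.089 RPM. With 1000 ng/ml Lif had 90.0 and 121.4 RPM, Csf2 28.7 and 38.5 RPM and Il3 3.96 and 3.29 RPM. Lif and Csf2 were thus above all their dose 0 libraries from 100 ng/ml on, and Il3 was clear of 0 only at 1000 ng/ml.

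Against dose 0, none of the 3 was called at 10 ng/ml, where 0 of 17269 clusters were called in a fit over all clusters. Lif (3.12 ± 0.25, adjusted p = 4.5e-08) and Csf2 (1.37 ± 0.24, adjusted p = 3.2e-04) were called at 100 ng/ml, where 26.4% of all genes were, whereas Il3 (0.13 ± 0.21, adjusted p = 0.69) was not. At 1000 ng/ml all 3 were called, beside 61% of all genes, with log2 differences of 5.75 ± 0.25 for Lif, 4.23 ± 0.24 for Csf2 and 2.21 ± 0.21 for Il3.

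Steps between neighbouring doses told the genes apart at the top of the range. From 10 to 100 ng/ml, Lif (2.82 ± 0.25) and Csf2 (1.89 ± 0.24) were called, beside 30% of all genes, and Il3 (-0.07 ± 0.21) was not. From 100 to 1000 ng/ml all 3 were called, beside 41.5% of all genes, and the step was 2.86 ± 0.24 for Csf2, 2.63 ± 0.25 for Lif and 2.08 ± 0.21 for Il3. From 1000 to 10000 ng/ml, where 9.84% of all genes were called, Il3 rose by 1.04 ± 0.19 (adjusted p = 0.0031) and Csf2 by 0.75 ± 0.22 (adjusted p = 0.035), whereas the Lif step was -0.12 ± 0.23 (adjusted p = 0.79). These tests compare doses within a gene, and the difference between genes was not tested.

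The dose at which a gene reached 50% of its top-dose rise, read from group means by interpolation on log10 dose, is called its mid-rise dose here. It was 231 ng/ml for Lif, 693 ng/ml for Csf2 and 1337 ng/ml for Il3. With each unengaged library left out in turn it ranged from 204 to 276 ng/ml for Lif, from 528 to 1009 ng/ml for Csf2 and from 1152 to 1523 ng/ml for Il3. These ranges did not overlap. They are a description with no test, and between 100 and 10000 ng/ml they rest on 3 doses.

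**Figure D2:**
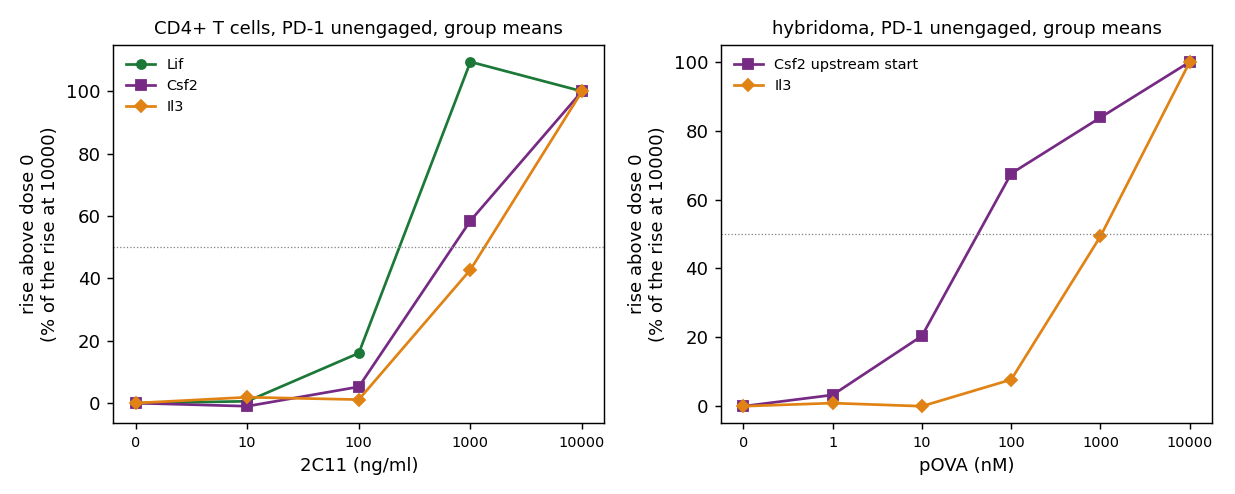
Rise of the group mean above dose 0 without PD-1 engagement, as a percent of the rise at 10000 (vertical axis), against dose (2C11 in ng/ml for CD4+ T cells, left; pOVA in nM for the hybridoma, right; evenly spaced steps), with the dotted line at 50%. In CD4+ T cells Lif crosses the line first (231 ng/ml), then Csf2 (693 ng/ml) and Il3 (1337 ng/ml); in the hybridoma the upstream start of Csf2 crosses it at 42.4 nM and Il3 at 1030 nM.

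PD-1 engagement lowered all 3 genes in stimulated CD4+ T cells, and Il3 lost the largest part of its rise at 1000 and 10000 ng/ml, the doses where its rise could be measured. Il3 had 1.05, 0.739 and 1.01 RPM in engaged libraries at 10000 ng/ml, against 8.36, 8.68 and 8.41 RPM in unengaged ones. At 1000 ng/ml it had 0.574 and 0.589 RPM in engaged and 3.96 and 3.29 RPM in unengaged libraries. The groups did not overlap at either dose, and the engaged mean was 10.97% of the unengaged mean at 10000 ng/ml and 16.0% at 1000 ng/ml. The cluster reached 3 RPM, which every cluster of the table does somewhere, in unengaged libraries alone, so its inclusion depends on the groups where it is high. The limma and permutation tests of engagement on Il3 given below are therefore no independent evidence of a difference. The engaged values rest on 24 tags over 3 libraries at 10000 ng/ml and 11 tags over 2 at 1000 ng/ml.

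Csf2 had 18.01, 16.26 and 14.24 RPM in engaged libraries at 10000 ng/ml, against 54.3, 65.4 and 50.8 RPM in unengaged ones. At 1000 ng/ml it had 8.45 and 10.9 RPM in engaged and 28.7 and 38.5 RPM in unengaged libraries, and at 100 ng/ml 0.904 and 1.72 RPM in engaged and 3.14 and 4.39 RPM in unengaged libraries. The engaged mean was 34.9%, 28.8% and 28.5% of the unengaged mean at 100, 1000 and 10000 ng/ml, and the groups did not overlap at any of these doses.

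Lif had 66.8, 74.0 and 55.3 RPM in engaged libraries at 10000 ng/ml, against 88.3, 109.8 and 92.0 RPM in unengaged ones. At 1000 ng/ml it had 38.7 and 50.7 RPM in engaged and 90.0 and 121.4 RPM in unengaged libraries, and at 100 ng/ml 4.07 and 5.92 RPM in engaged and 13.4 and 19.3 RPM in unengaged libraries. The groups did not overlap at any of these doses. The engaged mean was 30.6% of the unengaged mean at 100 ng/ml, 42.3% at 1000 ng/ml and 67.6% at 10000 ng/ml.

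Averaged over the 4 stimulated doses, engaged minus unengaged log2(RPM + 1) was -1.07 ± 0.11 for Csf2 (adjusted p = 3.6e-06), -1.01 ± 0.10 for Il3 (adjusted p = 1.8e-06) and -0.94 ± 0.12 for Lif (adjusted p = 1.6e-05). All 3 were called, as were 45.6% of all genes, and the median of all genes was -0.14. Quantile normalization moved that median to -0.00048, and the differences were then -0.96 for Csf2, -1.02 for Il3 and -0.78 for Lif, all still called. An exact two-sided permutation test that exchanged engagement labels within doses (4320 arrangements) gave p = 0.00185 for Csf2, 0.00556 for Il3 and 9.3e-04 for Lif (unadjusted, 3 of 7 such tests, counting both starts of Csf2 in the hybridoma).

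Dose by dose, Lif (-1.53 ± 0.25, adjusted p = 3.2e-04) and Csf2 (-1.05 ± 0.24, adjusted p = 0.0025) were lower under engagement at 100 ng/ml, where 39.2% of all genes were called. At 1000 ng/ml all 3 were lower, beside calls for 22.7% of all genes, by -1.69 ± 0.24 for Csf2, -1.55 ± 0.21 for Il3 and -1.22 ± 0.25 for Lif. At 10000 ng/ml, where 8.48% of all genes were called, Il3 (-2.30 ± 0.17, adjusted p = 3.7e-07) and Csf2 (-1.75 ± 0.19, adjusted p = 4.6e-05) were lower, whereas Lif (-0.56 ± 0.21) missed the threshold with an adjusted p of 0.0977. The recovered tags gave an adjusted p of 0.012 (edgeR) and 8.2e-04 (DESeq2) for the same Lif difference. At dose 0 and 10 ng/ml none of the 3 was called. The limit given above for the Il3 tests holds at each dose. In a fit over all 17269 clusters, 1641 were called at dose 0 and 73 at 10 ng/ml.

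Whether the effect of engagement changed with dose was tested as the effect at 10000 ng/ml minus the mean effect at the lower stimulated doses, a contrast in which 24.2% of all genes were called and the median of all genes was 0.19 (-0.06 after quantile normalization). On the log2(RPM + 1) scale the effect was more negative at 10000 ng/ml for Il3 (-1.72 ± 0.21, adjusted p = 2.2e-05) and Csf2 (-0.91 ± 0.24, adjusted p = 0.0083), and it was 0.51 ± 0.25 for Lif (adjusted p = 0.16, or 0.043 without the unengaged 10 ng/ml library numbered 1). At the lowest doses Il3 and Csf2 were close to 0 in both groups, with 11 tags of Csf2 in engaged and 5 in unengaged libraries at 10 ng/ml. On recovered tags the Il3 difference was not called, with an adjusted p of 0.92 (edgeR) and 0.33 (DESeq2).

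The same levels were also expressed within libraries, as the ratio of 2 members. At 10000 ng/ml the ratio of Csf2 to Lif was 0.220 to 0.270 in engaged and 0.551 to 0.615 in unengaged libraries, and at 1000 ng/ml it was 0.215 to 0.218 in engaged and 0.317 to 0.319 in unengaged libraries. For Il3 over Csf2 the ratio was 0.045 to 0.071 in engaged and 0.133 to 0.166 in unengaged libraries at 10000 ng/ml. Averaged over both doses, the log2 ratio differed by -0.90 for Csf2 over Lif, -2.02 for Il3 over Lif and -1.12 for Il3 over Csf2. Each gave an exact two-sided permutation p of 0.0167, the smallest that 120 arrangements allow, among 4 ratios tested. These ratios reuse the levels given above and were chosen after those had been seen, so their p-values are no separate support for an unequal loss. Il3 is in this table only through unengaged libraries, so the p-values of its ratios are no independent evidence of a difference.

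With PD-1 engaged, stimulation still raised the genes. Against engaged dose 0, where Lif had 0.464 and 0.922 RPM, Csf2 0.348 and 0.615 RPM and Il3 no tag, the rise at 10000 ng/ml was 5.30 ± 0.23 for Lif, 3.53 ± 0.22 for Csf2 and 0.95 ± 0.19 for Il3 on the log2(RPM + 1) scale. All 3 were called, as were 64.8% of all genes. All 3 were also called at 1000 ng/ml, beside 54.6% of all genes, with 0.66 ± 0.21 for Il3 (adjusted p = 0.012). At 100 ng/ml, where 13.6% of all genes were called, Lif (1.82 ± 0.25, adjusted p = 1.2e-04) was called and Csf2 (0.62 ± 0.24, adjusted p = 0.089) was not.

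**Figure D3:**
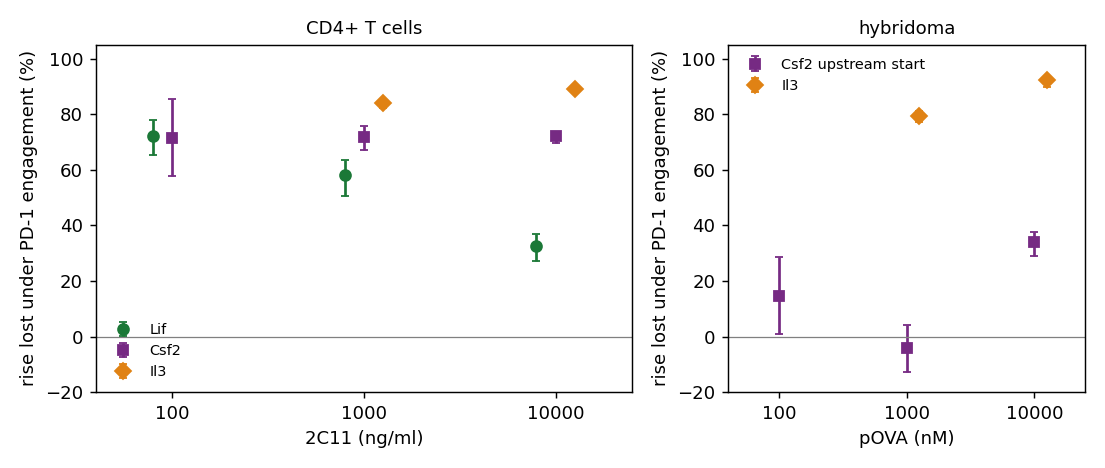
Percent of the unengaged rise above dose 0 that was lost under PD-1 engagement (vertical axis). CD4+ T cells are on the left (2C11 in ng/ml) and the hybridoma on the right (pOVA in nM), where Csf2 is its upstream start. Doses with an unengaged rise of at least 1 RPM are drawn, other than 10 nM in the hybridoma. Points are from group means and bars span the values with each library left out in turn. Il3 lies highest in both systems, at 89.0% and 92.2% at the top dose; Lif falls with dose to 32.4%, and Csf2 stays near 72% in CD4+ T cells.

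As a share of the rise above dose 0, engagement took away 72.0% of Lif at 100 ng/ml, 58.0% at 1000 ng/ml and 32.4% at 10000 ng/ml. For Csf2 the share lost was 71.6%, 71.9% and 72.0% at these doses, and for Il3 84.0% at 1000 ng/ml and 89.0% at 10000 ng/ml. These shares are a description with no test.

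B cell markers moved with engagement in the same libraries. Their 7 genes summed to 138 to 220 RPM in engaged and 86.2 to 188 RPM in unengaged stimulated CD4+ T cell libraries, and 6 of the 7 were higher under engagement in the mean over doses, where 45.6% of all genes were called in either direction. At 10000 ng/ml the sums were 145 to 177 RPM in engaged and 94.7 to 132 RPM in unengaged libraries. T cell markers summed to 3041 to 3520 RPM in engaged and 3329 to 3425 RPM in unengaged libraries at that dose. The part of these cells in the cytokine results was not tested.

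In the hybridoma the antigen raised Il3 and the upstream start of Csf2, at lower levels than in CD4+ T cells. Without engagement Il3 had no tag at dose 0, 1 tag in 2 libraries at 1 nM and none at 10 nM. It had 0.12 and 0.48 RPM at 100 nM, 1.74 and 2.09 RPM at 1000 nM and 4.29, 3.5 and 3.85 RPM at 10000 nM, where the mean was 3.88 ± 0.40 RPM (SD, n = 3). Against the 0.108 RPM that 0 tags over both dose 0 libraries allow, this was at least 35.9-fold higher (counting error of dose 0 only). Il3 thus became measurable within the upper end of the pOVA range, with all libraries at 1000 and 10000 nM above all those at lower doses.

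The rise of Il3 over dose 0 was 2.28 ± 0.20 at 10000 nM (adjusted p = 1.2e-07) and 1.54 ± 0.22 at 1000 nM (adjusted p = 9.1e-05), whereas 0.36 ± 0.22 at 100 nM (adjusted p = 0.33) was not called. Of all genes, 28.8% were called at 10000 nM, 30.6% at 1000 nM and 6.03% at 100 nM, over 10094 genes tested, and the median of all genes at 10000 nM was -0.18 (-0.04 after quantile normalization). The step of Il3 from 100 to 1000 nM, 1.18 ± 0.22, was called (adjusted p = 0.028) among 0.297% of all genes. Its step from 1000 to 10000 nM, 0.74 ± 0.20, was not (adjusted p = 0.41). In a fit over all 18014 clusters, 1 was called for that last step.

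Summed over its starts, Csf2 was present before stimulation and changed by less than in CD4+ T cells. It had 11.6, 11.5 and 14.0 RPM at 10000 nM, against 6.86 and 5.89 RPM at dose 0 without engagement, and the means of 12.4 ± 1.41 (SD, n = 3) and 6.38 ± 0.686 RPM (n = 2) differ 1.94-fold. On the log2(RPM + 1) scale the rise was 0.86 ± 0.17 at 10000 nM (adjusted p = 8.9e-04), 0.68 ± 0.18 at 1000 nM (adjusted p = 0.0097) and 0.69 ± 0.18 at 100 nM (adjusted p = 0.029), in the comparisons whose shares of called genes are given for Il3. Both dose 0 libraries numbered 2 held more B cell marker RNA than any other hybridoma library (254 to 284 RPM over 7 genes, against 34.6 to 77.4 RPM in those numbered 1). Without them the Csf2 rise at 10000 nM was 0.76 (adjusted p = 0.021) and the Il3 rise was 2.28 (adjusted p = 3.3e-07).

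The 2 starts of Csf2 moved in opposite directions. The upstream start, the one also seen in CD4+ T cells, had 10.2, 9.98 and 11.8 RPM at 10000 nM, against 2.41 and 2.71 RPM at dose 0. The downstream start had 1.40, 1.49 and 2.18 RPM at 10000 nM, against 4.45 and 3.18 RPM at dose 0. Neither pair of groups overlapped, and the downstream start was the larger of the 2 at dose 0 and the smaller at 10000 nM.

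In between, the upstream start of Csf2 had 3.35 and 2.30 RPM at 1 nM, 4.18 and 4.25 RPM at 10 nM, 7.54 and 8.54 RPM at 100 nM and 8.85 and 9.87 RPM at 1000 nM. The downstream start of Csf2 had 4.55 and 4.39 RPM at 1 nM, 3.61 and 3.41 RPM at 10 nM, 2.41 and 3.38 RPM at 100 nM and 1.04 and 1.94 RPM at 1000 nM. Fitted over all 18014 clusters tested, the upstream start rose by 1.34 ± 0.22 at 100 nM (adjusted p = 3.5e-04), 1.54 ± 0.22 at 1000 nM (adjusted p = 3.5e-05) and 1.71 ± 0.20 at 10000 nM (adjusted p = 2.3e-06). The downstream start changed by -0.96 ± 0.21 at 1000 nM (adjusted p = 0.0024) and -0.84 ± 0.19 at 10000 nM (adjusted p = 0.0030), and its -0.30 ± 0.21 at 100 nM (adjusted p = 0.40) was not called. Of all clusters, 8.67% were called at 100 nM, 30.2% at 1000 nM and 30% at 10000 nM. In the GENCODE annotation (GRCm38), the first exon of Csf2 ends 206 bases past its annotated start and the next begins 304 bases past it, and which of these regions holds the downstream cluster was not determined across builds.

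**Figure D4:**
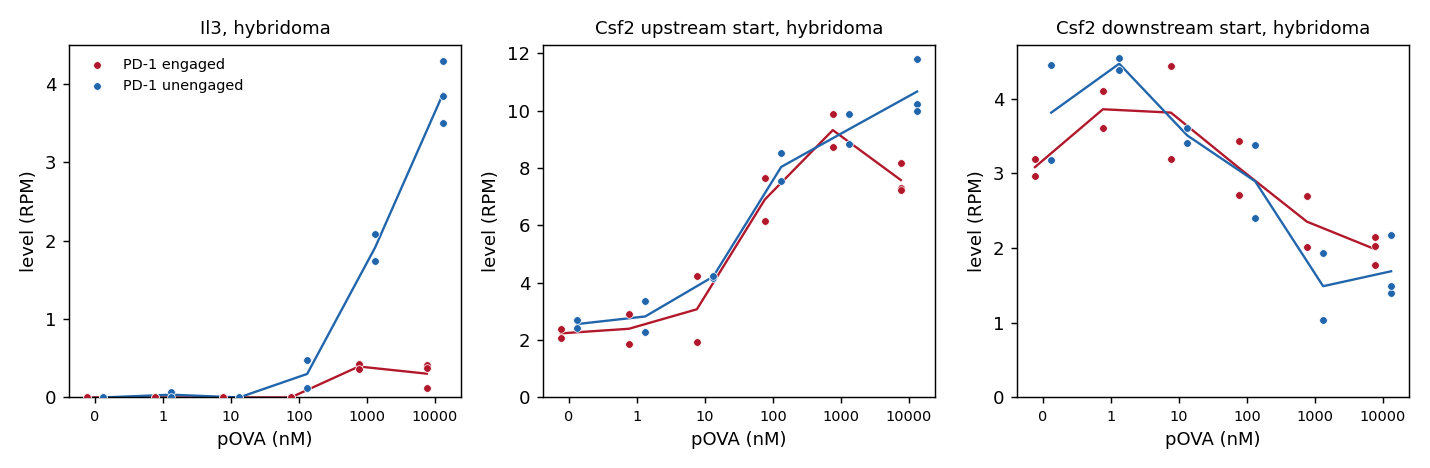
Level in RPM (vertical axis, from 0, scaled per panel) of Il3 and of the 2 starts of Csf2 in each hybridoma library against the dose of pOVA in nM (evenly spaced steps), with PD-1 engaged in red, left, and unengaged in blue, right; lines join group means. At 10000 nM Il3 lies at 0.12 to 0.41 RPM in engaged and 3.5 to 4.29 RPM in unengaged libraries; the upstream Csf2 start climbs between 10 and 1000 nM in both groups while the downstream start declines.

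The mid-rise dose was 42.4 nM for the upstream start of Csf2 (35.7 to 52.7 nM with each library left out), 32.5 nM for the sum over starts (24.3 to 54.7 nM) and 1030 nM for Il3 (825 to 1240 nM). Csf2 therefore came before Il3 along the dose range in the hybridoma as in CD4+ T cells, as a description with no test.

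Il3 was lower with PD-1 engaged in the hybridoma, whereas no change of Csf2 passed the limma threshold. Il3 is in this table, and passed the filter of 1 RPM in 2 libraries, only through unengaged libraries at 1000 and 10000 nM, so its inclusion depends on the groups where it is high and its test is no independent evidence of a difference. In engaged libraries Il3 had no tag at 0, 1, 10 or 100 nM. At 1000 nM it had 0.43 and 0.36 RPM in engaged and 1.74 and 2.09 RPM in unengaged libraries, and at 10000 nM it had 0.12, 0.41 and 0.38 RPM in engaged and 4.29, 3.5 and 3.85 RPM in unengaged libraries. The groups did not overlap at either dose. The engaged mean was 20.6% of the unengaged mean at 1000 nM and 7.82% at 10000 nM, and it rests on 12 and 16 tags.

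Averaged over the 5 stimulated doses, the Il3 difference was -0.68 ± 0.10 (adjusted p = 6.2e-04), in a contrast that called 0.931% of all genes. The exact permutation test within doses (25920 arrangements, two-sided) gave an unadjusted p of 0.00139. On recovered tags, edgeR (adjusted p = 1.00) and DESeq2 (adjusted p = 0.061) did not call this mean, to which 3 doses contribute at most 8 tags per group. At 10000 nM alone the difference was -1.91 ± 0.18 (adjusted p = 1.0e-05), beside calls for 0.406% of all genes. At 1000 nM it was -1.06 ± 0.22 with an adjusted p of 0.11, where 0.0793% of all genes were called. With libraries of the same dose and number paired as a replicate block, the 1000 nM difference was called (adjusted p = 0.012), and so were 7.34% of all genes. The effect at 10000 nM minus the mean effect at lower stimulated doses was -1.54 ± 0.21 (adjusted p = 0.0085), called among 0.0297% of all genes, and Il3 was at or near 0 in both groups at 1, 10 and 100 nM. A pseudocount of 0.5, edgeR, DESeq2 and leaving out the unengaged 10000 nM library numbered 1 (-1.48, adjusted p = 0.092) each ended this call.

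Stimulation left little Il3 under engagement. Against engaged dose 0 the Il3 difference was 0.37 ± 0.20 at 10000 nM (adjusted p = 0.17) and 0.48 ± 0.22 at 1000 nM (adjusted p = 0.13), neither of which was called, while 26.4% and 19.7% of all genes were. The engaged Il3 mean at 10000 nM was 0.303 ± 0.159 RPM, from 16 tags. It was 2.87-fold the 0.106 RPM that 0 tags over both engaged dose 0 libraries allow. The counting error of the 16 tags is not included, so 2.87 is not a lower limit of the rise. Csf2 was called in the same comparisons, with 0.74 ± 0.17 at 10000 nM (adjusted p = 0.0034) and 1.01 ± 0.18 at 1000 nM (adjusted p = 0.0012), and also at 100 nM (0.79 ± 0.18, adjusted p = 0.034), where 1.43% of all genes were.

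For Csf2, summed over starts, engaged libraries had 10.3, 9.34 and 9.03 RPM at 10000 nM, against 11.6, 11.5 and 14.0 RPM in unengaged ones, which did not overlap. The difference was -0.33 ± 0.15 at that dose (adjusted p = 1.00) and -0.15 ± 0.08 in the mean over doses (adjusted p = 1.00, or 0.25 with the replicate block), and the exact permutation p was 0.081. The upstream start had 8.19, 7.31 and 7.25 RPM in engaged and 10.2, 9.98 and 11.8 RPM in unengaged libraries at 10000 nM. Its mean difference over doses was -0.25 ± 0.09 (adjusted p = 0.36), where 1.82% of all clusters were called, and that of the downstream start was 0.12 ± 0.09 (adjusted p = 0.99). The exact permutation test within doses gave an unadjusted p of 0.0145 for the upstream start and 0.230 for the downstream start, so for the upstream start it passes 0.05 where the limma value over all clusters does not.

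The share of the rise lost under engagement was 79.4% at 1000 nM and 92.2% at 10000 nM for Il3, and 34.1% at 10000 nM for the upstream start of Csf2 (29.1 to 37.8% with each library left out). At 1000 nM it was -4.26% for the upstream start. The means there were 9.33 ± 0.813 RPM in engaged and 9.36 ± 0.721 RPM in unengaged libraries (SD, n = 2 each), which overlapped. At 100 nM the share lost for the upstream start was 14.8% (0.82 to 28.7% with each library left out). At 10 nM it was 49.2%, with a span of -19.9 to 118% that leaves its sign open. Within libraries, the ratio of Il3 to summed Csf2 at 10000 nM was 0.012 to 0.044 in engaged and 0.275 to 0.369 in unengaged libraries. Over 1000 and 10000 nM the log2 ratio differed by -2.94, with an exact two-sided permutation p of 0.0167, the smallest that the design allows. This ratio was chosen after the levels had been seen. Il3 is in this table only through unengaged libraries at these doses, so the p is no independent evidence of a difference. B cell markers summed to 32.8 to 61.9 RPM in engaged and 32.0 to 48.5 RPM in unengaged libraries at 10000 nM, and none of the 7 was called in the mean over doses.

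The genes whose levels ran most like those of the members over all libraries of a system are given as a description, since all libraries share the same doses. In CD4+ T cells (22 libraries) Csf2 ran most like Rgs1, a regulator of G protein signalling (Pearson r = 0.990), Cd40lg, the ligand of CD40 (0.988), Havcr2 (0.986), Casp6 (0.985) and Slamf1 (0.985). Lif ran most like Rrp1b (0.996), Mybbp1a (0.994), Galk1 (0.994), Hspd1 (0.994) and Nop56 (0.994). Il3 ran most like Hbegf, a growth factor of the epidermal growth factor family (0.974), the cytokine gene Il24 (0.960), Utf1 (0.923), the chemokine gene Xcl1 (0.922) and Havcr2 (0.904). In the hybridoma (26 libraries) Il3 ran most like Il2, the T cell growth factor (0.927), Rgs16 (0.916), Atf3 (0.910), Bpgm (0.908) and Cd160 (0.901). Csf2 ran most like the chemokine gene Ccl1 (0.897), Nr4a1 (0.886), Sh2d2a (0.885), Cd53 (0.883) and Egr3 (0.882). Between members, r was 0.962 for Csf2 and Lif, 0.900 for Csf2 and Il3 and 0.784 for Il3 and Lif in CD4+ T cells, and 0.658 for Csf2 and Il3 in the hybridoma.

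Of 26 other T cell cytokine genes listed, 18 were measured in CD4+ T cells, and 15 were higher and 2 lower at 10000 ng/ml than at dose 0, where 67.7% of all genes were called, with a median of 2.54 against -0.15 over all genes. Those with the largest change were Il4 (6.61), Ifng (6.05), Il2 (4.96) and Il21 (4.19). Under engagement 16 of the 18 were lower in the mean over doses and none higher, where 45.6% of all genes were called, with a median of -0.65 against -0.14 over all genes, led by Ifng (-1.38), Il4 (-1.16), Il24 (-1.11) and Tnfsf11 (-0.99). In the hybridoma 11 were measured, of which 6 were higher and 3 lower at 10000 nM, beside calls for 28.8% of all genes. Under engagement, where 0.931% of all genes were called, 3 of them, Il2 (-0.72), Tnf (-0.46) and Tnfsf11 (-0.46), were lower and Il16 (0.34) was higher.

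Of the receptor chains Csf2ra, Csf2rb, Csf2rb2, Il3ra, Lifr and Il6st, Il3ra alone was measured, in CD4+ T cells. With the kinases, STAT factors and feedback genes downstream of them, 14 of 20 listed genes were measured in CD4+ T cells. At 10000 ng/ml 6 of these were higher and 4 lower than at dose 0, a share near the 67.7% of all genes called, with a median of 0.02 against -0.15 over all genes. Those with the largest change were Cish (2.49), Socs1 (2.03), Jak1 (-1.56) and Socs2 (1.17), of which Cish, Socs1 and Socs2 encode feedback inhibitors of cytokine signals and Jak1 a receptor kinase. Under engagement 13 of the 14 were lower in the mean over doses, beside calls for 45.6% of all genes, with a median of -0.34 against -0.14, led by Cish (-0.65) and Socs3 (-0.61). In the hybridoma 10 were measured, 3 were higher and 2 lower at 10000 nM (28.8% of all genes called), and Socs1 (-0.45) alone was called under engagement (0.931% of all genes called).

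Among 26 transcription factor genes listed for cytokine promoters, 17 were higher and 7 lower at 10000 ng/ml in CD4+ T cells, with a median of 0.77, beside calls for 67.7% of all genes. Under engagement 20 were lower, beside calls for 45.6% of all genes, with a median of -0.36, led by Egr2 (-0.81) and Fosl1 (-0.71). In the hybridoma 25 were measured, 13 were higher and 6 lower at 10000 nM, with a median of 1.11, beside calls for 28.8% of all genes. There 5 were lower under engagement, beside calls for 0.931% of all genes, with a median of -0.17, led by Egr2 (-0.999) and Egr3 (-0.81). Of 11 genes that act on AU-rich mRNA, the class to which the mRNAs of these cytokines belong, 3 were higher and 5 lower at 10000 ng/ml in CD4+ T cells, with a median of -0.35, a share near the 67.7% of all genes called. Under engagement 7 were lower, with a median of -0.21, beside calls for 45.6% of all genes. In the hybridoma Zfp36l1 (3.001) and Zfp36 (2.11), which encode mRNA decay factors, were higher at 10000 nM and Tia1 (-0.31) lower, 3 of 11 being near the 28.8% of all genes called, and Zfp36l1 (-0.58) alone was lower under engagement (0.931% of all genes called).

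The listed neighbours of Csf2 and Il3 on chromosome 11 had their nearest starts 171 to 700 kb from Il3. In CD4+ T cells 11 of 15 were measured, and 3 were higher at 10000 ng/ml, all of them cytokine genes: Il5 (1.95), Il13 (3.21) and Il4 (6.61), which lie 546, 633 and 649 kb from Il3. Another 5 were lower, with Pdlim4 (-2.55), 198 kb away, showing the largest fall, and 8 of 11 is a share near the 67.7% of all genes called. Fnip1 (0.04 ± 0.16, adjusted p = 0.85), the nearest at 171 kb and named for its place after values were seen, was not called. In the hybridoma 8 were measured, and Il4 (2.01) was higher while Rad50 (-0.97), Cdc42se2 (-0.73) and Slc22a5 (-0.66) were lower (28.8% of all genes called). Under engagement 7 of the 11 were lower in the mean over doses in CD4+ T cells, with a median of -0.31 against -0.14 over all genes and beside calls for 45.6% of all genes, led by Il4 (-1.16), Il13 (-0.96) and Il5 (-0.67), and none of the 8 was called in the hybridoma, where 0.931% of all genes were.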

How the data were processed

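Capped 5′ ends were counted by CAGE (cap analysis of gene expression) from total RNA. The authors deposited 1 table per system with values in RPM per tag cluster. Build mm9, HISAT2 2.0.5 and BWA 0.7.12 are named, per the submitters' processing notes, with roles not given in the sources used here, as is the way clusters were called and named. Low values were whole multiples of a step per library, and with that step 100% of values were whole tags within 0.1, so tags and library totals were recovered. Each cluster reached 3 RPM in at least 1 library, so a rarer start can be absent from a table.

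Clusters with a single symbol were summed. Each system was fitted with limma 3.58.1 (R 4.3.3, trend) on log2(RPM + 1), 1 mean per group, keeping genes that reached 1 RPM in 2 or more libraries, with two-sided p-values adjusted by the Benjamini-Hochberg method over all genes tested (10094 and 10217). Recovered tags were also tested with edgeR 4.0.16 and DESeq2 1.42.0. The fit was also run on simulated data with no pairing of libraries, and the outcome is not used here. Other settings were pseudocounts, filters, quantile normalization, the replicate block, the largest cluster per gene and libraries left out. Hybridoma libraries that shared a dose and a number deviated together from their group means (correlation 0.256 to 0.759 over 13 pairs, from the data and not the labels). With 2 libraries per group, both pairs of a dose give the same correlation by construction, so the 13 values are not independent. The highest, 0.759, is that of dose 0. The block is therefore given where it changes a call. Named genes are the members, the up to 4 listed genes with the largest called change, and the 5 genes most like each member with a mean of at least 1 RPM. The members, lists and tests were chosen with earlier results of these data known.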

Additional observations from a re-analysis of the deposited data

Results flagged for a closer look

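In 3 cases a limma contrast of the PD-1 engagement effect at the top dose with its mean at the lower stimulated doses passed the threshold. The lower doses include ones where Il3 held 0 to 8 tags per group, and where Csf2 in CD4+ T cells held 11 tags in engaged and 5 in unengaged libraries, so on this scale little or no effect could appear there and the contrast does not separate a change of effect from absence of expression. Neither Il3 case was called with edgeR or DESeq2. On the log2(RPM + 1) scale the effect at 10000 minus the mean effect at lower doses was -1.54 for Il3 in the hybridoma, -0.91 for Csf2 in CD4+ T cells and -1.72 for Il3 in CD4+ T cells. As a share of the unengaged mean, engaged Csf2 in CD4+ T cells stood at 34.9%, 28.8% and 28.5% at 100, 1000 and 10000 ng/ml.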

How the results depend on the processing

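No result reversed under any setting run. The mean engagement effect on hybridoma Il3 was -2.68 with edgeR and -2.37 with DESeq2, neither called. The hybridoma Il3 effect at 10000 minus lower doses was -1.92 with a pseudocount of 0.5, -1.21 with edgeR and -1.63 with DESeq2, none called, and -1.60 to -1.43 with each library left out, where leaving out unengaged 10000 nM library 1 ended the call (-1.48, adjusted p = 0.092). In CD4+ T cells that contrast for Il3 was -1.04 with edgeR and -1.38 with DESeq2, not called, and for Lif it was 0.37 to 0.65 with each library left out, called without unengaged 10 ng/ml library 1 (0.65, adjusted p = 0.043). Lif at 10000 ng/ml became called with a pseudocount of 5 (-0.53), edgeR (-0.58), DESeq2 (-0.62), only the groups compared (-0.56) and the replicate block (-0.56, adjusted p = 0.033). The cause of these shifts was not tested. Settings on the effect at 10000, and on that effect minus lower doses, were chosen after seeing the data, as was the fit per cluster. The block changed no other call among these results, apart from hybridoma Il3 at 1000 nM. In CD4+ T cells same-numbered libraries correlated at 0.013 to 0.255, the highest of which is near the lowest hybridoma value of 0.256. Whether they form pairs was not determined. With each library left out, the hybridoma mid-rise dose was 24.3 to 54.7 nM for Csf2 summed over starts and 825 to 1240 nM for Il3. In CD4+ T cells it was 204 to 276 ng/ml for Lif, 528 to 1009 ng/ml for Csf2 and 1152 to 1523 ng/ml for Il3. The share of the rise lost at 10000 in the hybridoma was 17.8 to 35.4% for Csf2 summed over starts and 89.8 to 93.6% for Il3. In CD4+ T cells that share was 27.2 to 37.0% for Lif, 69.7 to 73.6% for Csf2 and 87.9 to 89.7% for Il3. Hybridoma Il3 has no value under a filter of 5 RPM. Over all genes, calls for the engagement mean were 4663 in CD4+ T cells, against 2741 with quantile normalization, 2959 with edgeR and 2596 with DESeq2, and 94 in the hybridoma, against 143 with DESeq2 and 657 with the block. At 10000 they were 866 in CD4+ T cells, against 303 with only the groups compared, and 41 in the hybridoma, against 9 with only the groups compared, 64 with a pseudocount of 5, 87 with DESeq2 and 254 with the block. Hybridoma calls for stimulation were 2912, against 1085 with only the groups compared and 1743 without both dose 0 libraries numbered 2. The hybridoma contrast between doses called 3 genes, against 0 with edgeR, a pseudocount of 0.5 or a filter of 5 RPM, 7 with a pseudocount of 5 and 19 with the block. Depth limits Il3 at low doses, where a group holds 0 to 8 tags.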
